A study of Mus musculus with 15 samples.

Results

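The genes described here are 42 genes of the lysosome: subunits of its proton pump, proteins of its membrane, its acid hydrolases with their helper proteins, and the transcription factors that switch such genes on. They were chosen by symbol, as rows of the deposited table named exactly as the members, with the cathepsins left out. All 42 were found among 42454 entries, and 39 had a mean normalized count of at least 100 and were tested among 8656 genes. By role they are 17 genes of the vacuolar ATPase (V-ATPase, 15 tested), 7 membrane proteins (all tested), 15 hydrolases and lumenal proteins (14 tested) and the 3 MiT/TFE factors Tfeb, Tfe3 and Mitf (all tested).

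RNA was sequenced from macrophages of mouse ear skin in 15 libraries, 3 in each of 5 groups. Every group came from CX3CR1-creERT2/gfp R26-tdT/+ mice, in which GFP and an inducible Cre are driven by Cx3cr1 and tdTomato appears after Cre has acted, and every animal had received tamoxifen 3 weeks before its left ear was punched. Skin was taken 10 days after the punch, and CD11b+ CD64+ Lin- cells were sorted from the punched left ear or the unpunched right ear. In the groups IM (unpunched ear) and injIM (punched ear) the cells were interstitial macrophages, gated as GFP-/Tomato-. The groups sNAM (unpunched) and injsNAM (punched) hold the cells titled sNAM, for which the protocol gives the resident nerve-associated gate GFP+/Tomato+. The group recsNAM holds recruited sNAM of the punched ear, gated as GFP+/Tomato-. Because the gate reads Cx3cr1 reporters, GFP marks cells that express Cx3cr1 and Tomato marks cells that did so when tamoxifen was present. The reporter entry of the injIM and sNAM labels goes against these gates, and the genotype entry writes Cxcr1; the groups here follow the titles. The animals numbered 3, no label ties a library to a mouse, and the tests treated the libraries as independent. The labels used here give no age, sex or strain background.

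A lysosome is a membrane-bound compartment in which macrophages break down what they have engulfed. The V-ATPase pumps protons into it: the V1 sector on the cytosolic side splits ATP, and the V0 sector in the membrane carries the protons. The low pH activates the hydrolases, while heavily glycosylated proteins such as LAMP1 and LAMP2 line the membrane. TFEB, TFE3 and MITF bind the DNA sequence known as the CLEAR element at the promoters of many lysosomal genes.

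Promoters of the members were searched for the core of that element, since it is a sequence feature that the choice of genes did not use. Each RefSeq promoter window ran from 250 bases before to 50 bases after the annotated start, on GRCm38.p6. The letters TCACGTG, or CACGTGA on the other strand, were found in 11 of the 35 members with a promoter entry (31.4%) and in 1160 of 27025 genes (4.29%). The related letters TCATGTG (reverse CACATGA) were found in 4 of 35 members (11.4%) and 4.31% of all genes, and no match counts for both motifs. Of the printed windows, that of Gla also holds TCATGTG, left in lower case. The 11 members with TCACGTG are Atp6v0b, Atp6v0d1, Atp6v0e, Atp6v1a, Lamp1, Mcoln1, Gaa, Gla, Glb1, Lgmn and Naglu. Windows of 6 of them are printed to show how the motif is placed in pump, membrane and hydrolase genes, each with 17 bases on either side of the outermost matches and the matches in capitals. Where 8 letters in a row are capital, matches on both strands overlap.
Lamp1 (chr8:13159082-13159168, plus strand): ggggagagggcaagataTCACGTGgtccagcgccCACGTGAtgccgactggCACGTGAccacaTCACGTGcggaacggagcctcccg
Mcoln1 (chr8:3500430-3500497, plus strand): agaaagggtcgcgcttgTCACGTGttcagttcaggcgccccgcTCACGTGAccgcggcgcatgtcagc
Atp6v0b (chr4:117887325-117887383, minus strand): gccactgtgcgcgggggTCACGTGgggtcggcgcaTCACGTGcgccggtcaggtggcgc
Atp6v0d1 (chr8:105566044-105566085, minus strand): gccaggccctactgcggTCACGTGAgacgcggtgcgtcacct
Atp6v1a (chr16:44139367-44139408, minus strand): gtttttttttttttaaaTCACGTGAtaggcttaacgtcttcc
Gla (chrX:134601176-134601250, minus strand): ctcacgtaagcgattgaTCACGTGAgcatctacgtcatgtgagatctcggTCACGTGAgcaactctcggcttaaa

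Lamp1 holds 4 matches, of which the first begins 62 bases and the last 16 bases before the annotated start. Mcoln1, Atp6v0b and Gla hold 2 places each, and the single match of Atp6v0d1 begins 4 bases before the start. A match is a string of letters and not a measured binding site. Members with and without the motif are set side by side after the results for each class.

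Recovered depth ran from 5.64 to 18.6 M reads (M, 10 to the power of 6) in sNAM and from 16.9 to 19.5 M in injsNAM, and reached 20.4 to 23.8 M in the interstitial and recsNAM libraries. The sNAM and injsNAM libraries stood apart. In sNAM 3.89% to 25.8% of tested genes had no read and in injsNAM 4.26% to 8.79%. This was at most 0.277% in IM and injIM and 0.751% in recsNAM. Correlations between libraries of a group were 0.644 to 0.776 in sNAM and 0.762 to 0.772 in injsNAM. They were 0.972 to 0.982 in IM and 0.934 to 0.955 in recsNAM. The shallowest, sNAM replicate 2, had no read for 4 tested members (Atp6v0d2, Gaa, Gla and Naglu), where 1 read is worth 2.91 normalized counts. Of 7 macrophage markers other than Cd68, Aif1 was listed at 0 in every library; in counts per M reads (CPM), the list summed to 6460-6980 in IM, 5740-7320 in injIM, 5770-6670 in recsNAM, 3480-5350 in sNAM and 4910-5620 in injsNAM. The 9 dendritic cell markers, none at 0 in every library, summed to 1660-2710 CPM in sNAM against 265-621 in IM and 103-260 in injIM. Ccr7 was the largest part of the sNAM sum, at means of 25.6 (IM) and 1550 (sNAM). Cd209a (402 and 314) and Xcr1 (19.5 and 5.68) had lower means in sNAM, and the others higher ones. Of the 9, 2 were called higher in sNAM against IM. The 7 T and NK cell markers summed to 62.4-95.9 (IM), 176-233 (injIM), 481-735 (sNAM) and 346-731 CPM (injsNAM). Il7r was the largest part, at means of 444 (sNAM) and 301 (injsNAM). Cd3e had means of 1.96 (IM), 60.2 (sNAM) and 92.2 (injsNAM), and Nkg7 of 0.455, 41.7 and 88.8. Of the 7, 1 was called higher for sNAM over IM. Mast cell sums spread from 0.161 to 1870 CPM among sNAM libraries, beside 545-711 among IM libraries. The part that these differences between libraries and sorted cells have in the results was not tested, and in bulk samples fewer cells of a type and less RNA per cell cannot be told apart.

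After injury, interstitial macrophages had more RNA for 4 hydrolase or lumenal genes and for the V0 subunit Tcirg1, and less for the alternative V0 subunit Atp6v0a1. Recruited sNAM had less RNA than injIM for 4 pump subunits and 2 membrane proteins, and no tested hydrolase passed the threshold in that comparison. The calls do not set the classes apart there. The median difference was -0.192 for the V-ATPase, -0.0921 for the membrane proteins and -0.166 for the hydrolases. Beside the recsNAM difference, the dendritic markers summed to 103-260 CPM in injIM and 356-528 in recsNAM (2 of 9 called higher). Ccr7 had means of 12.7 in injIM and 298 in recsNAM. Cd209a (136 and 69.6) and Xcr1 (15.8 and 14.4) had lower means in recsNAM. The T and NK markers summed to 176-233 and 365-495 (1 of 7 higher), mostly from Il7r, at means of 207 and 439. Each of the other T and NK markers had a mean of at most 1.2 CPM in injIM and 2.57 in recsNAM. The 6 fibroblast markers, none at 0 in every library, summed to 275-1050 and 44.3-263 (1 lower). The part of these markers in the recsNAM difference was not tested. In sNAM of the unpunched ear, Atp6v0d2 and Lamp1 were lower than in IM. All tests named here are limma on log2(normalized count + 100) over all 8656 genes, called at a Benjamini-Hochberg adjusted p below 0.05, and all differences are on that log2 scale. The calls of injIM against IM and recsNAM against injIM moved with the treatment of the spread and with the filter. With 1 pooled spread in place of a weight per group limma called 0 members in either comparison, as did edgeR, while DESeq2 called 0 and 1 (Lamp1). With the weights kept and no filter, limma called 1 and 3 members, where it called 315 and 362 of 23686 genes.

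**Figure D1:**
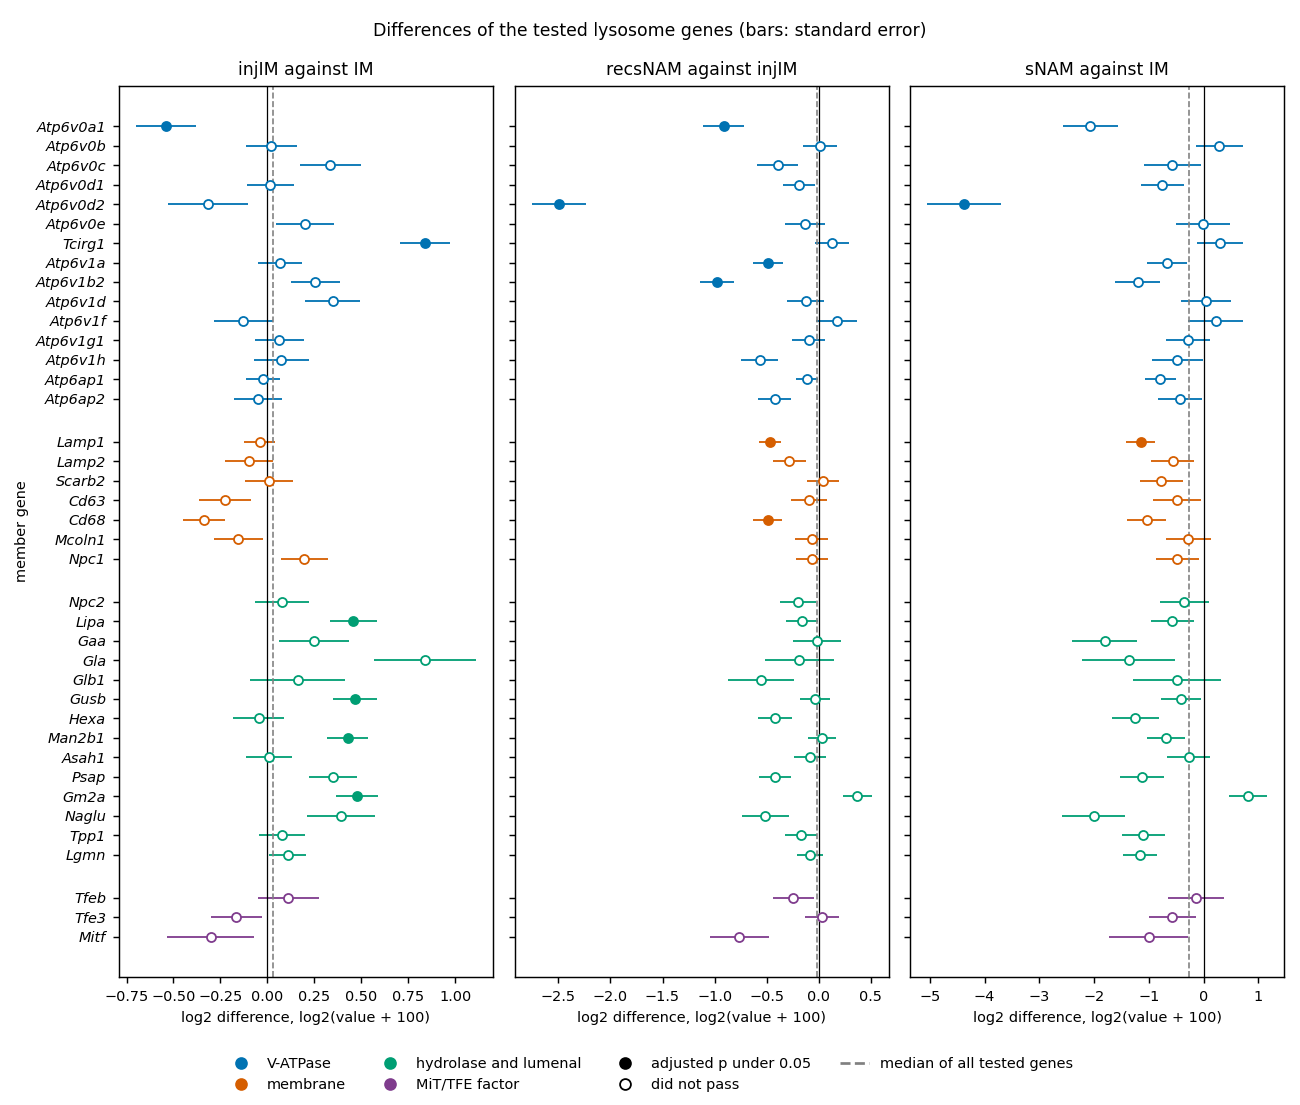
Log2 differences (limma, log2(normalized count + 100)) of the 39 tested members in 3 comparisons, grouped by class, with bars of 1 standard error; filled points passed an adjusted p of 0.05. The x axes differ in range between panels, and the widest difference is that of Atp6v0d2 in sNAM against IM, at -4.37.

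In the V-ATPase, injIM against IM gave 1 higher and 1 lower call among 15 tested genes, where 4.15% of all genes tested were called higher and 4.03% lower (8.18% in either direction). The median difference of the class was 0.0634, against 0.0295 over all genes. In recsNAM against injIM, 4 of the 15 were lower and 0 higher, where 4.34% of all genes were called lower, 3.19% higher and 7.53% in either direction; the class median was -0.192, against -0.0205 over all genes. In sNAM against IM, 1 was lower and 0 higher, where 0.508% of all genes were called lower, 0.543% higher and 1.05% in either direction; the medians were -0.479 and -0.259.

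The a subunit of V0 forms the path for protons, and its isoforms send the pump to different membranes; Tcirg1 encodes a3, the isoform of osteoclasts and of macrophage lysosomes. Tcirg1 (chr19:3896050-3907133, GRCm38) was at 3921, 4380 and 3752 normalized counts in IM replicates 1 to 3 and at 6015, 6932 and 9114 in injIM. Every injIM library lay above every IM library, and the gene rose by 0.84 (SE 0.133; limma, adjusted p = 0.000399). It was at 9418, 7804 and 6789 in recsNAM, at 3545, 6832 and 5084 in sNAM and at 6723, 6756 and 7674 in injsNAM. The recsNAM range overlapped that of injIM, with a difference of 0.13 (SE 0.164; limma, adjusted p = 0.759). The call in injIM against IM held without each library in turn, and was lost with a pooled spread (adjusted p = 0.362), in edgeR (0.502) and in DESeq2 (0.233).

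Atp6v0a1 (chr11:101009422-101063719, GRCm38) encodes a1, the isoform best known from neurons. Its normalized counts were 4785, 6253 and 5143 in IM and 3699, 4655 and 2824 in injIM, so that the highest injIM library lay just under the lowest IM library. It fell by 0.54 (SE 0.16; limma, adjusted p = 0.0406), a call that was lost when IM replicate 1, 2 or 3 or injIM replicate 1 or 3 was left out (adjusted p 0.0606 to 0.137). In recsNAM it was at 1767, 2178 and 1760, below every injIM library, and the difference from injIM was -0.91 (SE 0.196; limma, adjusted p = 0.00572, and 0.0794 without recsNAM replicate 1). It was at 2013, 742 and 1138 in sNAM, below every IM library, at a difference of -2.07 (SE 0.503; limma, adjusted p = 0.0506), and at 1619, 3202 and 2750 in injsNAM, which overlapped injIM.

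The proportion of the 2 genes in IM stood apart from that in every other library. Per kilobase of exon, Tcirg1 made up 49.7%, 46% and 47.8% of the summed signal of the a subunits Atp6v0a1, Atp6v0a2, Tcirg1 and Atp6v0a4 in IM, and 64.1%, 61.7% and 77.7% in injIM. Its mean share was 78.4% ± 3.89 (SD, n = 3) in recsNAM, 75.5% ± 12.6 in sNAM and 75.3% ± 4.52 in injsNAM. The share of Atp6v0a1 was 44.9% ± 2.03 in IM, 24.6% ± 6.66 in injIM, 13.2% ± 2.08 in recsNAM, 14.5% ± 9.09 in sNAM and 18.8% ± 5.31 in injsNAM. Every library of the other 4 groups had a higher Tcirg1 share and a lower Atp6v0a1 share than every IM library, and recsNAM, sNAM and injsNAM did not differ from each other beyond their spread. These shares are given as a description, with no test.

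**Figure D2:**
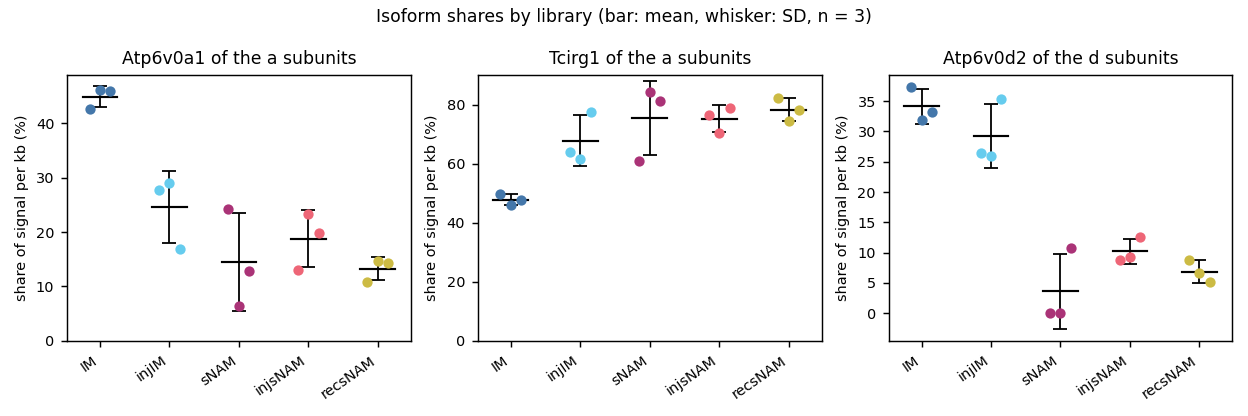
Share of each subunit isoform (percent of the summed signal per kilobase of exon of its subunit family) in each library, as points, with the group mean and SD (n = 3), for 2 a subunits and 1 d subunit of V0; the y axes differ. The Tcirg1 share was 46% to 49.7% in IM and at least 61.1% in every other library, and the Atp6v0d2 share was highest in IM and injIM.

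The d subunit couples V0 to the rotating stalk of the pump; Atp6v0d1 is found in most tissues, and Atp6v0d2 is a restricted isoform known from osteoclasts, kidney and some macrophages. Atp6v0d2 (chr4:19876838-19922566, GRCm38) was at 4740, 3430 and 4991 normalized counts in IM and at 5.78, 0 and 827 in sNAM. All sNAM libraries lay below all IM libraries, and the fitted difference was -4.37 (SE 0.672; limma, adjusted p = 0.00567). The value of 0 is in the shallowest library, and the adjusted p was 0.0534 with a pseudocount of 10, 0.121 in edgeR and 0.146 without sNAM replicate 1.

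Of the 39 members, Atp6v0d2 also had the lowest difference in recsNAM against injIM. It was at 3243, 2866 and 4458 in injIM and at 717, 455 and 457 in recsNAM. The groups were far apart, at 6.49-fold in their means, and the difference was -2.50 (SE 0.262; limma, adjusted p = 9.12e-06). The call was lost with a pooled spread (adjusted p = 0.135) and in edgeR (adjusted p = 1). It was at 617, 576 and 1029 in injsNAM, also below every injIM library, with a difference of -2.12 (SE 0.515; limma, adjusted p = 0.0688). Within interstitial macrophages the injury groups overlapped, with a difference of -0.32 (SE 0.213; limma, adjusted p = 0.459).

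Its partner isoform Atp6v0d1 was at 5234, 4827 and 6643 in IM, 5974, 5376 and 5405 in injIM and 4888, 4230 and 5585 in recsNAM, and these 3 ranges overlapped. It was at 3560, 2064 and 4574 in sNAM and 4263, 3712 and 4716 in injsNAM. Both ranges lay below those of their interstitial counterparts, with differences of -0.75 (SE 0.393; limma, adjusted p = 0.386) and -0.40 (SE 0.302; limma, adjusted p = 0.684). Per kilobase, the Atp6v0d2 share of the d subunits was 34.2% ± 2.88 (SD, n = 3) in IM and 29.2% ± 5.23 in injIM, against 6.86% ± 1.87 in recsNAM, 3.59% ± 6.13 in sNAM and 10.2% ± 2.09 in injsNAM.

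In V1, the A and B subunits form the ring that splits ATP, and Atp6v1b2 encodes the B isoform found in most cells. Atp6v1b2 was at 23318, 21332 and 24085 normalized counts in injIM and at 12411, 11858 and 10510 in recsNAM. The groups did not overlap, and the difference was -0.98 (SE 0.16; limma, adjusted p = 0.000596), which was lost with a pooled spread (adjusted p = 0.201), in edgeR (0.399) and in DESeq2 (0.121). It was at 21626, 15043 and 21681 in IM, 10997, 5030 and 10182 in sNAM and 12011, 18853 and 19211 in injsNAM, so every sNAM library was below every IM library, at a difference of -1.2 (SE 0.41; limma, adjusted p = 0.163).

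Atp6v1a, which encodes the catalytic A subunit, was at 21668, 17986 and 18344 in injIM and 14552, 12989 and 13603 in recsNAM. These groups did not overlap either, and the difference was -0.49 (SE 0.143; limma, adjusted p = 0.0423). This call was lost when injIM replicate 1 or 2 or recsNAM replicate 1, 2 or 3 was left out (adjusted p 0.0509 to 0.22). Atp6v1a was at 19180, 15690 and 20639 in IM, 11922, 8774 and 14826 in sNAM and 9682, 15268 and 18511 in injsNAM. Atp6v1h, the regulatory H subunit, showed the same order, with 8322 ± 704 (SD, n = 3) in injIM and 5564 ± 195 in recsNAM, but did not pass (difference -0.57, SE 0.181; limma, adjusted p = 0.062).

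The other tested pump genes passed in no comparison with the main limma fit. Atp6ap1 was called lower in sNAM against IM by edgeR and DESeq2, as were Atp6v0a1 and Atp6v1b2 of the subunits above. The proteolipid genes Atp6v0b and Atp6v0c, which form the rotor, were at 2953 ± 480 and 5621 ± 721 in IM and at 2998 ± 56.2 and 5457 ± 1340 in recsNAM. Among the accessory proteins, Atp6ap1 was at 13780 ± 515 in IM, 13560 ± 414 in injIM and 12540 ± 793 in recsNAM, and at 7988 ± 1270 in sNAM and 11000 ± 346 in injsNAM; its sNAM difference from IM was -0.79 (SE 0.28; limma, adjusted p = 0.182). Atp6ap2 was at 9584 ± 1110 in injIM and 7118 ± 671 in recsNAM, without overlap (difference -0.42, SE 0.159; limma, adjusted p = 0.128). The small V1 genes Atp6v1d, Atp6v1f and Atp6v1g1 overlapped between groups in injIM against IM and in recsNAM against injIM.

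Atp6v1c1 and Atp6v1e1 did not reach the filter. Atp6v1c1 was listed at no more than 0.78 and Atp6v1e1 at no more than 2.94 normalized counts in any library, and each stands in 2 rows of the table. Both encode V1 subunits used in most cells, so these low values are uncertain and no comparison was made. Neu1, a sialidase, stands in 4 rows and was listed at 0 in all of them. Asah1 also has a second row, at 7.39 or less, and the row used was at 2755 ± 175 in injIM.

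**Figure D3:**
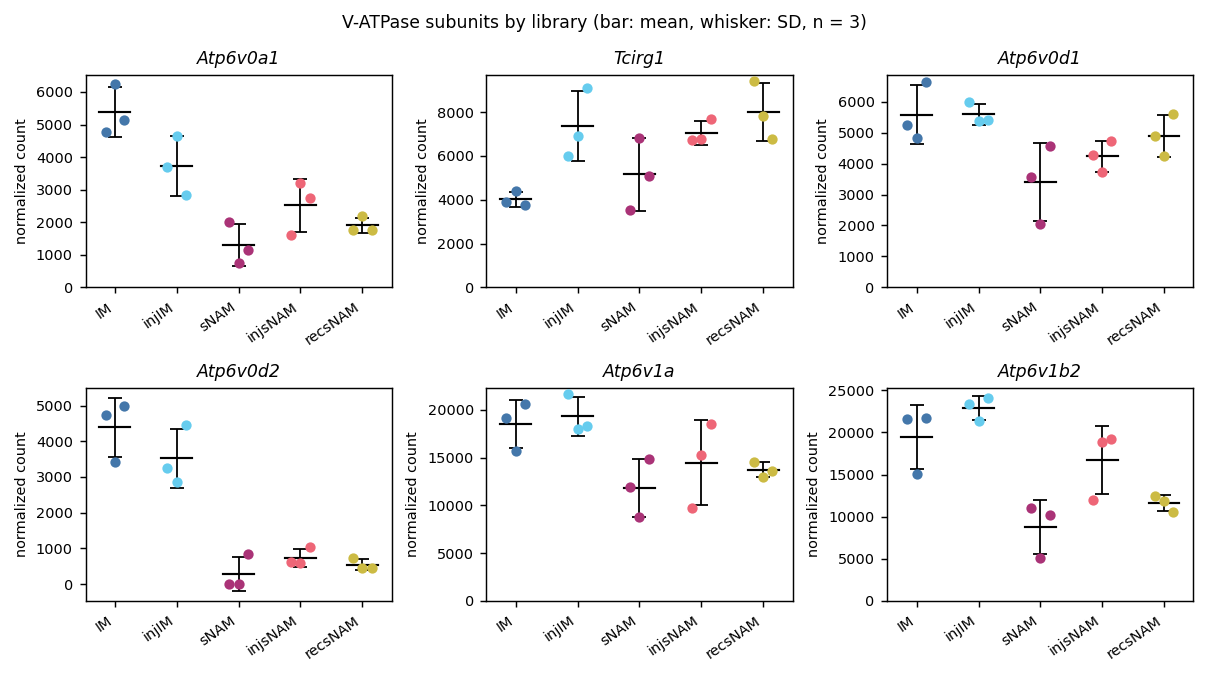
Normalized counts of V-ATPase members in each library (points, linear y axis) with the group mean and SD (n = 3), for 6 genes. Tcirg1 is higher in injIM than in IM, and Atp6v0d2 and Atp6v1b2 are lower in recsNAM than in injIM with no overlap.

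Among the membrane proteins, 0 of 7 were called in injIM against IM by the main limma fit, edgeR or DESeq2. In that comparison 1 had an unadjusted limma p below 0.05 (20% of all genes). With the replicate number added to the fit, limma called Cd68 lower. In recsNAM against injIM 2 of 7 were lower, where 4.34% of all genes were. The class medians were -0.0965 and -0.0921, against 0.0295 and -0.0205 over all genes. In sNAM against IM 1 of 7 was lower, where 0.508% of all genes were, all 7 differences were negative and the class median was -0.566. Over all genes in that comparison 63% of the differences were negative.

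Lamp1, the most abundant glycoprotein of the lysosomal membrane, had normalized counts of 54633, 52094 and 56686 in IM and 54586, 52956 and 51136 in injIM. These overlapped, at a difference of -0.04 (SE 0.0843; limma, adjusted p = 0.85). It was at 36411, 37242 and 40776 in recsNAM, 21075, 23806 and 29221 in sNAM and 34263, 37834 and 38229 in injsNAM. All 9 libraries of these 3 groups lay below all 6 interstitial libraries. The differences were -1.15 for sNAM against IM (SE 0.266; limma, adjusted p = 0.0427), -0.52 for injsNAM against injIM (SE 0.204; limma, adjusted p = 0.295) and -0.47 for recsNAM against injIM (SE 0.104; limma, adjusted p = 0.00682). The sNAM call was lost with a pseudocount of 10 (adjusted p = 0.115) and without any 1 library other than IM replicate 2 (adjusted p 0.051 to 0.32). It was kept with a pooled spread (limma, adjusted p = 0.000141), in edgeR (0.000528) and in DESeq2 (2.89e-14). It was also kept in limma without the filter (0.0042), with TMM scaling (0.0402) and with a replicate block (0.0227). The recsNAM call was lost without recsNAM replicate 1 (adjusted p = 0.101), with a pooled spread (0.233) and in edgeR (0.399), and kept in DESeq2 (0.0423).

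Cd68, a macrophage member of the LAMP family, was at 60172, 53948 and 57720 in IM, 46362, 39776 and 50522 in injIM and 30357, 27827 and 39648 in recsNAM. Each group lay below the one before, with the highest recsNAM library just under the lowest injIM library. The difference was -0.34 for injIM against IM (SE 0.112; limma, adjusted p = 0.0761) and -0.49 for recsNAM against injIM (SE 0.138; limma, adjusted p = 0.0341). The second was lost without injIM replicate 1 or 3 or recsNAM replicate 1 or 2 (adjusted p 0.0536 to 0.243). In sNAM it was at 25008, 21862 and 39329 and in injsNAM at 25279, 29628 and 38553. The sNAM difference from IM was -1.04 (SE 0.354; limma, adjusted p = 0.163), and edgeR and DESeq2 called Cd68 lower there.

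Lamp2, which also serves chaperone-mediated autophagy, was at 13709, 11119 and 16507 in IM, 14130, 12432 and 11706 in injIM, 9680, 12045 and 9760 in recsNAM, 11249, 7432 and 9175 in sNAM and 8483, 6887 and 9346 in injsNAM. It was called in no comparison. The tetraspanin Cd63, the hydrolase receptor Scarb2, the calcium channel Mcoln1 and the cholesterol exporter Npc1 were not called either. Scarb2 was at 2387 ± 159 (SD, n = 3) in IM and 1373 ± 287 in sNAM, without overlap, and at 2401 ± 169 in injIM and 2486 ± 323 in recsNAM. Npc1 was at 4688 ± 153 in IM and 5387 ± 150 in injIM, without overlap, at a difference of 0.20 (SE 0.125; limma, adjusted p = 0.42).

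Hydrolases and lumenal proteins were the class with the most calls in injIM against IM: 4 of 14 were higher and 0 lower, where 4.15% of all genes were higher and 4.03% lower. The class median was 0.298, against 0.0295 over all genes, 13 of 14 differences were positive (54.2% over all genes), and 7 of 14 had every injIM library above every IM library, which held for 13.5% of all genes. In recsNAM against injIM 0 of 14 were called by the main limma fit, edgeR or DESeq2. The unadjusted limma p was below 0.05 for 4 (19.3% of all genes). The median was -0.166, and 12 of 14 differences were negative (52.8% over all genes). Psap, Hexa and Naglu had every recsNAM library below every injIM library (12.5% of all genes), and Gm2a every one above (11.4%). With the replicate number added to the fit, limma called Hexa and Psap lower and Gm2a higher. In sNAM against IM limma called 0 of 14, and the median was -0.896, against -0.259 over all genes. It was the lowest median of the classes. The unadjusted p was below 0.05 for 7 (15% of all genes), and 13 of 14 differences were negative (63%). For 9 of 14 every sNAM library lay below every IM library (18.4% of all genes). In that comparison edgeR called Hexa, Lgmn and Psap lower, where it called 253 of 13678 genes lower and 114 higher. DESeq2 called these and Man2b1 lower and Gm2a higher, where it called 1388 of 23686 genes lower and 556 higher. None of the 4 calls in injIM against IM was made by edgeR or DESeq2. Beside them, 9 mast cell markers, none at 0 in every library, summed to 545-711 CPM in IM and 249-268 in injIM, with 6 of the 9 called lower. The 7 T and NK cell markers summed to 62.4-95.9 and 176-233 CPM, with 1 called higher. Il7r made up most of this sum, at means of 74.1 CPM in IM and 207 in injIM. Each of the other T and NK markers had a mean of at most 1.96 CPM in IM and 1.2 in injIM. Of the dendritic markers 3 of 9 were called lower and of the macrophage markers 2 of 7 higher. Their part in the result was not tested.

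Gusb, a glucuronidase, was at 5805, 6116 and 6324 normalized counts in IM and 7278, 9732 and 8473 in injIM. The groups did not overlap, and it rose by 0.47 (SE 0.116; limma, adjusted p = 0.0153), which was lost without IM replicate 1 (adjusted p = 0.0779) or injIM replicate 2 (0.11). It was at 8079, 8161 and 8415 in recsNAM, 4167, 8101 and 2777 in sNAM and 5013, 4927 and 3829 in injsNAM. The recsNAM libraries lay above all injsNAM libraries, at a difference of 0.84 that did not pass (SE 0.292; limma, adjusted p = 0.475).

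Gm2a, the activator protein that presents GM2 ganglioside to hexosaminidase, was at 6771, 7051 and 7185 in IM and 9336, 8734 and 11425 in injIM, and rose by 0.47 (SE 0.111; limma, adjusted p = 0.0105, and 0.0547 without IM replicate 1). It was at 13344, 11460 and 13192 in recsNAM, 16546, 8363 and 13684 in sNAM and 10542, 11171 and 7002 in injsNAM. Gm2a was the 1 member of 39 with every sNAM library above every IM library (9.57% of all genes), at a difference of 0.81 (SE 0.351; limma, adjusted p = 0.286). By contrast, 19 of 39 members had every sNAM library below every IM library, which held for 18.4% of all genes.

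Man2b1, the lysosomal alpha-mannosidase, was at 14693, 17772 and 17224 in IM and 21816, 24698 and 20358 in injIM, and rose by 0.43 (SE 0.111; limma, adjusted p = 0.0207), which was lost without IM replicate 1 or 3 or injIM replicate 1 or 2 (adjusted p 0.0509 to 0.135). Its values were 24150, 25260 and 19213 in recsNAM, 10591, 8194 and 12141 in sNAM and 13691, 21016 and 13534 in injsNAM. Lipa, the acid lipase that frees cholesterol and fatty acids, was at 4700, 6044 and 6379 in IM and 7573, 7325 and 8581 in injIM, and rose by 0.46 (SE 0.124; limma, adjusted p = 0.0264), which was lost without IM replicate 1 or injIM replicate 1 or 3 (adjusted p 0.0518 to 0.181). In both genes all injIM libraries were above all IM libraries. Lipa was at 7729, 6092 and 7227 in recsNAM, 3867, 3077 and 4526 in sNAM and 6809, 3664 and 4517 in injsNAM.

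Psap, the precursor of the saposins that help sphingolipid hydrolases, was at 77472, 95632 and 72419 in IM and 113259, 95776 and 102313 in injIM. The lowest injIM library was barely above the highest IM library, and the difference was 0.35 (SE 0.127; limma, adjusted p = 0.109). It was at 90085, 57482 and 89461 in recsNAM, 32248, 46427 and 33895 in sNAM and 42065, 69950 and 58955 in injsNAM. Npc2, the lumenal cholesterol carrier, was at 12576, 10847 and 13587 in IM, 13434, 10288 and 15786 in injIM, 10676, 9446 and 14251 in recsNAM, 9017, 9117 and 10726 in sNAM and 8390, 8646 and 15287 in injsNAM, and passed in no comparison.

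The remaining tested members of the class, Gaa, Gla, Glb1, Hexa, Asah1, Naglu, Tpp1 and Lgmn, were not called by the main limma fit. Hexa and Lgmn were called lower in sNAM against IM by edgeR and DESeq2. Gla, the alpha-galactosidase, was at 2252 ± 938 (SD, n = 3) in IM and 3897 ± 650 in injIM, without overlap (difference 0.84, SE 0.27; limma, adjusted p = 0.0639). Lgmn, the asparaginyl protease legumain, was at 36150 ± 3460 in IM, 38980 ± 3720 in injIM and 36640 ± 2450 in recsNAM, and at 16220 ± 2830 in sNAM and 25630 ± 2400 in injsNAM; its difference in sNAM against IM was -1.16 (SE 0.312; limma, adjusted p = 0.0727). Naglu, which degrades heparan sulfate, was at 1969 ± 258 in IM and 707.4 ± 618 in sNAM, where 1 library had no read (difference -2.01, SE 0.574; limma, adjusted p = 0.0904). Hexa, the alpha subunit of hexosaminidase A, was at 13250 ± 2110 in injIM and 9918 ± 2030 in recsNAM.

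**Figure D4:**
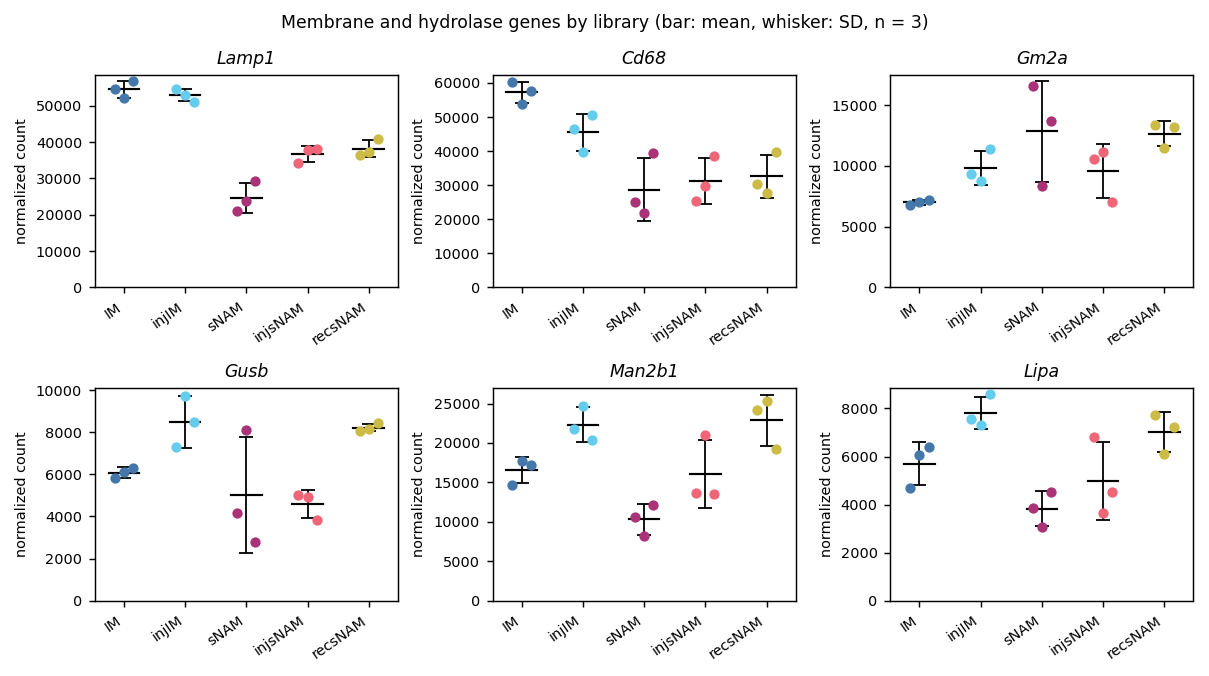
Normalized counts of membrane and hydrolase members in each library (points, linear y axis) with the group mean and SD (n = 3), for Lamp1, Cd68, Gm2a, Gusb, Man2b1 and Lipa. Lamp1 is lower in sNAM, injsNAM and recsNAM than in every interstitial library, while Gusb, Gm2a, Man2b1 and Lipa are higher in injIM than in IM.

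Levels can be compared between genes per kilobase of exon. In IM the order was Cd68 at 45570 ± 2490 (normalized counts per kilobase, SD, n = 3), Psap at 29830 ± 4450, Lamp1 at 20360 ± 860 and Lgmn at 15560 ± 1490. In injIM it was Psap at 37820 ± 3220 and Cd68 at 36240 ± 4310, which did not differ beyond their spread, then Lamp1 at 19770 ± 645 and Lgmn at 16780 ± 1600. Of the tested members, Mitf and Tfeb were the lowest in both, at 109.8 ± 31.8 and 105.8 ± 2.64 in IM, within their spread.

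Summed per kilobase, the 3 classes stood in different proportions in the 5 groups. The hydrolase sum was 64700 ± 3530 in IM, 77030 ± 5250 in injIM, 64810 ± 9380 in recsNAM, 33970 ± 1350 in sNAM and 48800 ± 7090 in injsNAM. The membrane sum was 75770 ± 4430, 64720 ± 5160, 48280 ± 6850, 39270 ± 10800 and 46700 ± 7920 in the same order, and the V-ATPase sum was 31620 ± 3890, 33290 ± 3050, 26360 ± 1090, 22300 ± 1930 and 28100 ± 5030. The hydrolase sum of recsNAM was thus near that of IM in its mean. Its membrane sum was below every IM library, which also held for every injIM, sNAM and injsNAM library. Against injIM, of the same punched ear, recsNAM was lower in the means of all 3 sums. A single gene weighs heavily in 2 of these sums: Cd68 made up 56.6% of the membrane sum and Psap 45.2% of the hydrolase sum. These sums are a description, with no test.

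Tfeb, Tfe3 and Mitf, the transcription factors, passed in no comparison with limma. Only Mitf, in recsNAM against injIM, had an unadjusted p below 0.05, as 19.3% of all genes did there. Tfeb was at 616, 597 and 586 normalized counts in IM, 639, 677 and 651 in injIM, 436, 596 and 595 in recsNAM, 386, 434 and 886 in sNAM and 811, 531 and 221 in injsNAM. Tfe3 was at 3150, 3855 and 2797 in IM, 2830, 3105 and 2707 in injIM, 3220, 3316 and 2369 in recsNAM, 2808, 2789 and 1253 in sNAM and 2515, 3062 and 2429 in injsNAM. Mitf was at 505, 894 and 643 in IM, 661, 429 and 492 in injIM, 406, 146 and 291 in recsNAM, 248, 64 and 868 in sNAM and 418, 868 and 1022 in injsNAM. The injIM libraries of Tfeb lay just above those of IM (difference 0.11, SE 0.161; limma, adjusted p = 0.778), and the recsNAM libraries of Mitf lay below those of injIM (difference -0.76, SE 0.282; limma, adjusted p = 0.12). These factors are controlled largely by where the protein sits in the cell, which RNA levels do not measure.

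Members with and without TCACGTG were then set side by side. In injIM against IM the 11 members with the motif had a median difference of 0.108 and 0 calls by limma, and the 22 tested members with a promoter entry and no motif had a median of 0.0423, with 5 higher and 1 lower. In sNAM against IM the medians were -0.753 and -0.571, with 1 lower call (Lamp1) in the set with the motif and 0 in the other. In recsNAM against injIM the medians were -0.187 and -0.166, with 2 lower calls in each set. Called members in neither set, such as Atp6v0d2, have no promoter entry. Lamp1 and Atp6v1a, whose windows are printed above, were the 2 called in recsNAM against injIM with the motif.

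The other comparisons gave no calls among the members with limma. In injsNAM against sNAM 0 of 39 passed (0% of all genes tested), and 3 had an unadjusted p below 0.05 (6.77% of all genes). DESeq2 called 5 higher (Lamp1, Lgmn, Hexa, Atp6v1b2 and Atp6ap1), where it called 1076 of 23686 genes higher and 800 lower. With edgeR 0 members were called, and 111 of 13678 genes. The median was 0.324, against 0.141 over all genes, and 9 members had every injsNAM library above every sNAM library (7.35% of all genes) and 0 had every one below (4.69%). Gaa, the acid alpha-glucosidase, was at 772.6 ± 669 (SD, n = 3) in sNAM, with 1 library at 0, and 2486 ± 312 in injsNAM (difference 2.25, SE 0.719; limma, adjusted p = 0.553). The difference between the injury responses of sNAM and interstitial macrophages was tested as an interaction. It passed for 0 of 39 members in limma (0% of all genes) and for Lamp1 alone in DESeq2, which called 867 of 23686 genes.

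In injsNAM against injIM 0 of 39 members passed in limma, where 0.485% of all genes did (0.243% in each direction). The unadjusted p was below 0.05 for 6 (11.7% of all genes). DESeq2 called 3 lower, Lamp1, Psap and Lgmn, where it called 1070 of 23686 genes lower and 264 higher. With edgeR 0 members were called, and 36 of 13678 genes. The member median was -0.408, against -0.0914 over all genes, and 13 members had every injsNAM library below every injIM library (12.0% of all genes), with 0 the other way (8.92%). In recsNAM against injsNAM 0 of 39 passed in limma (0% of all genes), and 1 had an unadjusted p below 0.05 (7.15% of all genes). DESeq2 called 1, Lgmn, and 1046 of 23686 genes in all. All recsNAM libraries lay above all injsNAM libraries for 5 members (7.29% of all genes) and below them for 2 (6.40%). The hydrolases had a median of 0.368 with 13 of 14 positive, and the V-ATPase a median of -0.106. Comparisons that share a group share its libraries, and injIM enters 4 of the 7, the interaction included.

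A wider list of 95 other genes, of which 81 were tested, was examined in the same fit. It holds genes of the lysosome itself and 22 genes (20 tested) of sorting to it and of nutrient signalling. In injIM against IM 11 of the 81 were higher and 1 lower, where 4.15% and 4.03% of all genes were. Of the 11, 3 (Igf2r, Sort1 and Gnptab) were from the sorting and nutrient signalling part. By adjusted p the first 5 were Igf2r, a receptor that sorts hydrolases to the lysosome (402.8 ± 182 normalized counts in IM and 1414 ± 200 in injIM), the acid phosphatase Acp5 (608.6 ± 291 and 7256 ± 6530), the sorting receptor Sort1 (87.69 ± 17.6 and 384.1 ± 123), Gnptab, which starts the mannose-6-phosphate tag (920.3 ± 206 and 2098 ± 266), and the acid phosphatase Acp2 (1941 ± 265 and 2927 ± 159). The adjusted p values (limma) ran from 5.92e-05 for Igf2r to 0.00814 for Acp2.

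In recsNAM against injIM 2 of the 81 were higher and 9 lower, where 3.19% and 4.34% of all genes were. The first 5 were the channel Mcoln2 (3233 ± 472 in injIM and 1217 ± 209 in recsNAM), the transporter Mfsd12 (3136 ± 164 and 1556 ± 554), Igf2r (1414 ± 200 and 521.6 ± 89.5), Plbd1, which was higher (1754 ± 662 and 4257 ± 1640), and Hgsnat (9035 ± 1850 and 4941 ± 1150). Adjusted p values (limma) ran from 0.000228 for Mcoln2 to 0.0155 for Hgsnat. In sNAM against IM, where 0.543% of all genes were higher and 0.508% lower, 1 was higher, Plbd1 (863.2 ± 232 in IM and 8414 ± 3350 in sNAM), and 2 were lower, Sumf1, which activates sulfatases (1487 ± 108 and 181.3 ± 314), and Grn, the progranulin gene (76620 ± 4410 and 33320 ± 6410). These 3 calls were lost with a pseudocount of 10 and without sNAM replicate 1, where limma called 0 of the 8656 genes.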

How the data were processed

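RNA from 250 pg inputs was made into libraries with SMARTer v4 reagents, 13 PCR cycles and Nextera XT, per the labels' protocols. The tools named in the submitters' processing notes are STAR 2.7.2b, DESeq2 1.24.0, R 3.6.1, cutadapt and bcl2fastq 2.18, and the build is mm10. Which program counted reads, with which annotation and strand setting, is not given in the sources used here. Each deposited value, called a normalized count here, is a signal: the authors' whole read number over a factor of that library. Dividing by the smallest value gave the reads back, since 100% of the values above 0 came out whole within 0.01. Reads carry no molecular identifiers.

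Genes with a mean of at least 100 were fitted as log2(value + 100) with limma 3.58.1 in R 4.3.3 (mean trend, robust, 1 array weight per group), with Benjamini-Hochberg adjustment within each of 7 comparisons. Group weights were 3.43 for IM, 3.21 for injIM, 0.175 for sNAM, 0.311 for injsNAM and 1.67 for recsNAM. A fold on this scale understates changes of low genes. Nothing in the labels says whether replicates came from separate animals, so p-values measure the spread between these libraries, which may be technical. No replicates agreed within read-sampling noise (lowest chi-square per degree of freedom 45.3). Alternatives were a pseudocount of 10, no filter, a pooled spread, TMM scaling, edgeR 4.0.16 and DESeq2 1.42.0 on recovered reads, a replicate block, each library left out, and, added after seeing the data, a fit on IM, injIM and recsNAM only.

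Members and lists were chosen with earlier results of these data known. Values in every library are given for members called in at least 1 comparison and for Atp6v0d1, Atp6v0d2, Tcirg1, Lamp1, Lamp2, Cd68, Npc2, Lipa, Psap, Tfeb, Tfe3 and Mitf. The rest are given by mean or count, and genes of the wider list by the 5 smallest adjusted p values among those called. Exon lengths are unions over GENCODE vM21; promoters and positions are from RefSeq on GRCm38.p6, and mm10 names the same assembly. All 42 members matched a RefSeq gene and 35 a promoter entry. No protein sequence was used.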

Additional observations from a re-analysis of the deposited data

How the results depend on the processing

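The number of members called depended on the treatment of the spread. In sNAM against IM the number was 2, and it was 0 with a pseudocount of 10, 4 without the filter, 11 with a pooled spread, 8 with edgeR, 10 with DESeq2, and 0 to 3 when 1 library was left out; it was 0 without sNAM replicate 1, and 1 without IM replicate 1, IM replicate 3, sNAM replicate 2 or sNAM replicate 3. In injIM against IM the number was 6, and it was 1 without the filter (Tcirg1), 0 with a pooled spread, edgeR or DESeq2, 3 in the added fit on 3 groups (Tcirg1, Gm2a and Gusb), and 1 to 7 when 1 library was left out, with 1 without IM replicate 1 and 3 without injIM replicate 1. In recsNAM against injIM the number was 6, and it was 3 without the filter (Atp6v0d2, Atp6v1b2 and Lamp1), 0 with a pooled spread or edgeR, 1 with DESeq2 (Lamp1), 3 in the added fit (Atp6v0d2, Atp6v1b2 and Atp6v0a1), and 2 to 7 when 1 library was left out, with 2 without recsNAM replicate 1. Where limma called 0, injsNAM against sNAM gave 2 with a pooled spread and 5 with DESeq2, injsNAM against injIM gave 1 without the filter and 3 with DESeq2, and recsNAM against injsNAM and the interaction gave 1 each with DESeq2; leaving out 1 library gave 0 to 0 in all 4. TMM scaling gave 3, 6 and 4 in the first 3 comparisons.

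Same-numbered libraries of 2 groups had correlations of their deviations between -0.021 and 0.388, over 0.1 in 9 of 30 pairs. By that cutoff the numbers were not taken as pairs, and the main fit holds no pairing. With 3 animals and 3 libraries per group, pairing by animal is possible and was not excluded. With a replicate block the number of members called was 5 in sNAM against IM, 10 in injIM against IM, 1 in injsNAM against injIM and 12 in recsNAM against injIM. Over all genes it was 100, 928, 70 and 1211 in the same order. The members not called in the main fit were Hexa, Atp6v0a1 and Lgmn in the first, and Cd68, Atp6v1d, Atp6v0c and Gla in the second. They were Atp6v0d2 in the third. In the last they were Atp6v1h, Atp6v0c, Atp6ap2, Hexa and Psap, all lower, and Gm2a, higher. Libraries correlated best with their own number in 6 of 6 cases for IM with recsNAM, sNAM with injsNAM and injsNAM with recsNAM, 5 of 6 for injIM with recsNAM, 4 of 6 for IM with injIM, IM with sNAM, IM with injsNAM and injIM with injsNAM, 3 of 6 for injIM with sNAM and 2 of 6 for sNAM with recsNAM, a hint from the data and not from the design.

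Over all genes, sNAM against IM had 91 calls, 51.6% of them higher, and TMM scaling gave 127, 38.6% higher; edgeR gave 367, DESeq2 1944 and a pseudocount of 10 gave 0. The count was 120 of 23686 genes without the filter and 727 of 8656 with a pooled spread. It was 0 without sNAM replicate 1, 9 without sNAM replicate 3 and 57 without IM replicate 3. In injIM against IM the count was 708, against 3 with edgeR, 73 with DESeq2, 425 without IM replicate 1, 399 without IM replicate 3 and 428 without injIM replicate 1. Without the filter the count was 315 of 23686 genes, with a pooled spread 18 of 8656 and in the added fit 565 of 8656. In recsNAM against injIM it was 652, against 10 with edgeR, 235 with DESeq2, 357 without injIM replicate 1 and 272 without recsNAM replicate 1. Without the filter it was 362 of 23686 genes, with a pooled spread 22 of 8656 and in the added fit 496 of 8656. A pooled spread gave 363 of 8656 genes in injsNAM against sNAM. No filter gave 102 of 23686 in injsNAM against injIM. In sNAM against IM a pseudocount of 10 moved the median of all genes from -0.259 to -0.506 and that of the members from -0.571 to -0.594. For the 14 called values of single members, 192 alternative values were computed: 107 kept the call, 85 lost it and 0 changed direction. The adjusted p of Atp6v0d2 is not given by DESeq2. In the shallowest library 1 read is worth 2.91 normalized counts, and low members there cannot be told from 0. Gaa, Gla and Naglu had no read there but were at 982 to 2710 in sNAM replicates 1 and 3. What lies behind these values of 0 was not tested.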
